A study of Mus musculus with 28 samples.

Results

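The Hox genes of the mouse were taken as every gene in the table used here whose symbol is Hoxa, Hoxb, Hoxc or Hoxd followed only by a number from 1 to 13. The rule found 57 of 45281 probes, for 38 genes. Probes with a detection p-value under 0.05 on at least 3 arrays were kept, and 47 Hox probes passed. They measured 34 Hox genes of 13373 genes with a kept probe: 10 of 10 Hoxa genes, 7 of 10 Hoxb genes, 9 of 9 Hoxc genes and 8 of 9 Hoxd genes. Of the 38 genes, 25 had 1 probe. The genes that were not tested were Hoxb1, Hoxb8, Hoxb13 and Hoxd13.

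RNA from cells of the vertebral column of E12.5 mouse embryos, sorted by EGFP fluorescence, was amplified and measured on Illumina MouseWG-6 bead arrays. The EGFP(+) cells came from 5 genotypes: Pax1-/-Pax9-/- (n = 3), Pax1-/-Pax9+/- (n = 3), Pax1-/- (n = 5), Pax1+/- (n = 5) and WT (n = 5). In the WT embryos, Pax1 WT:+/EGFP, 1 Pax1 allele carries EGFP behind a 2A peptide and still makes Pax1 protein. The Pax1- and Pax9- alleles carry EGFP in the disrupted exon 2, so EGFP is driven by Pax1 in all 5 genotypes and by Pax9 as well in the compound mutants. EGFP(-) cells (n = 3) were the cells of the vertebral column without fluorescence, and their labels give no genotype. Their title and genotype field name them GFP(-), while a treatment text on their records speaks of sorted GFP(+) cells; the title was followed, and the comparisons with EGFP(-) cells rest on it. The embryos were of a hybrid 129Sv and C57BL/6 background, and each replicate held the sorted cells of a pair of vertebral columns.

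Hox genes encode homeodomain transcription factors. In mammals they lie in 4 clusters, Hoxa to Hoxd, and genes with the same number in different clusters are paralogues that descend from a common ancestral gene. Within a cluster the genes with low numbers lie at the 3′ end and are active earlier and closer to the head, and the genes with high numbers are active later and nearer the tail, an order called collinearity. In the vertebral column the combination of Hox proteins sets the identity of each vertebra: paralogue groups 3 and 4 act on cervical, 5 to 9 on lower cervical and thoracic, 10 on lumbar, 11 on sacral and 13 on tail vertebrae. Hox genes are also active in the spinal cord, limb buds and kidney. Below, groups 1 to 4 are called anterior (11 genes, 10 tested), 5 to 8 central (11 genes, 10 tested) and 9 to 13 posterior (16 genes, 14 tested).

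The 28 arrays lay on 5 chips. Chip 1 held all 6 compound mutant arrays and no other genotype. Chip 2, of the same chip series (B), held 2 WT and 3 Pax1-/- arrays. Chips 3, 4 and 5 (series A) held the other WT, Pax1+/- and Pax1-/- arrays and 1 EGFP(-) array each. Comparisons of the compound mutants with WT or Pax1-/- cells are therefore also comparisons between chips. Their Hox calls are given again from a fit with a term for the chip series and from series B arrays alone. Neither removes the difference between chip 1 and chip 2, so genotype and chip cannot be told apart in either. The fit with the term took each array as its own sample, with 8 for Pax1-/- and 6 for WT cells. Its p-values treat same-named arrays as independent. Of all probes 42.2% to 44.23% were detected on series B arrays and 45.44% to 50.64% on series A arrays. The number of Hox probes detected on a single array ranged from 35 to 42. The level of Pax1 was 10.54 to 10.63 in Pax1-/-Pax9-/-, 11.06 to 11.13 in Pax1-/-Pax9+/-, 10.84 to 11.07 in Pax1-/-, 10.71 to 10.83 in Pax1+/- and 11.03 to 11.53 in WT cells, against 8.57, 7.66 and 4.71 in EGFP(-) replicates B1, B2 and B3. The level of Pax9 went against 1 label: it was 6.85 in the library labelled Pax1-/-Pax9-/- B1 and 4.73 and 4.77 in B2 and B3, against 6.58 to 6.94 in Pax1-/-Pax9+/- and 6.01 to 6.96 in WT cells. Where the probes lie relative to the disrupted exons was not known here, and a probe outside them would check nothing. Tek was 8.018 in B1, 7.749 in B2 and 8.005 in B3, against 5.035 to 6.497 in Pax1-/-Pax9+/- cells. Col2a1 was 9.088, 9.164 and 8.754 (10.12 to 10.43), and Sox5 6.128, 6.431 and 6.115 (7.002 to 7.324). For these genes, picked as called between the compound genotypes with B1 included, B1 lay with B2 and B3. Whether the label of B1 is right was not tested. The Hox calls in Pax1-/-Pax9-/- cells and the order by paralogue number are given with and without that library.

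All levels are log2 intensities after background correction and quantile normalization, and a fold change of 1 on this scale is a doubling. The level of one gene cannot be set against that of another, because probes differ in brightness. Genes with a limma p under 0.05, adjusted by Benjamini-Hochberg over the 13373 genes, and a change of at least 1.5-fold are referred to as called. Comparisons that share the EGFP(-), WT or Pax1-/- replicates are not independent of each other.

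The first question was how the Hox genes of the EGFP(+) cells differed from those of the other cells of the vertebral column. In WT cells 10 of the 34 tested Hox genes were called against EGFP(-) cells: Hoxa4 and Hoxc5 were higher, and Hoxb2, Hoxb5, Hoxb6, Hoxb7, Hoxb9, Hoxc6, Hoxd3 and Hoxd4 were lower. Over all genes 7.25% were called higher and 9.14% lower in this comparison, and in either direction 29.4% of the Hox genes and 16.4% of all genes were called. In Pax1+/- cells 2 Hox genes were called higher and 10 lower (all genes: 8.2% and 9.66%), and in Pax1-/- cells 2 were called higher and 8 lower (all genes: 7.54% and 8.74%). Hoxb was the cluster with most calls: 6 of its 7 tested genes were called in Pax1-/- cells, 5 in Pax1+/- cells and 5 in WT cells, all of them lower than in EGFP(-) cells.

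**Figure D1:**
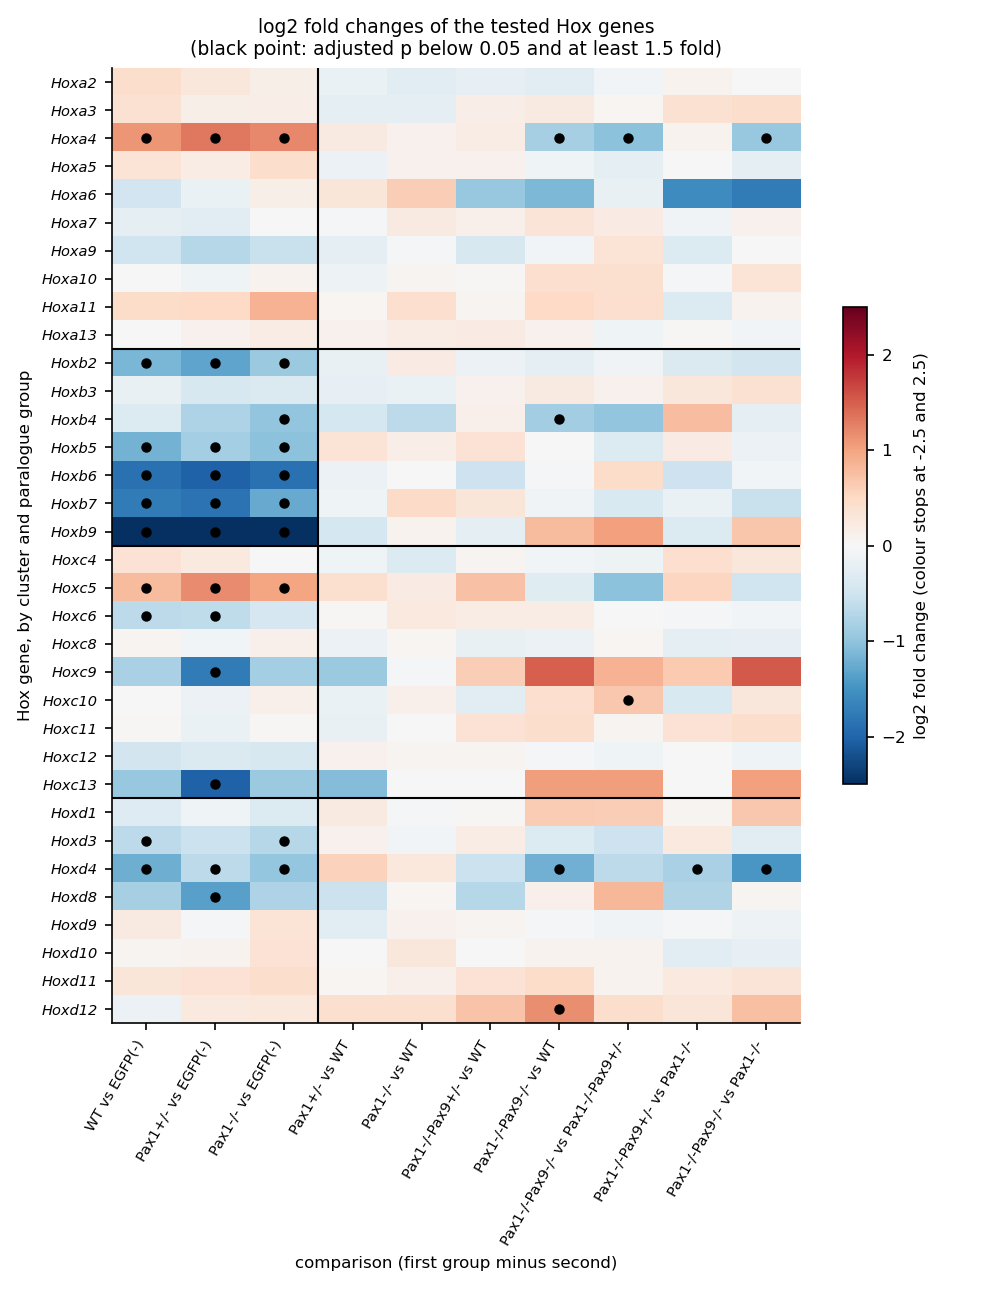
Each row is 1 of the 34 tested Hox genes, ordered by cluster and paralogue group, and each column is a comparison; colour gives the log2 fold change of the first group against the second and a black point marks a call. The 7 Hoxb rows are blue in every comparison with EGFP(-) cells, and few points stand in the columns that compare EGFP(+) genotypes.

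Hoxb9, which patterns thoracic vertebrae and ribs together with the other Hox9 genes, differed most. Its levels were 7.52, 7.25, 6.48, 6.90 and 6.34 in Pax1-/- replicates, 6.05, 6.61, 5.79, 7.17 and 6.24 in Pax1+/- replicates and 7.32, 6.53, 6.12, 6.61 and 7.47 in WT replicates, against 9.37, 9.26 and 10.09 in EGFP(-) replicates. Every replicate of these 3 EGFP(+) genotypes lay below every EGFP(-) replicate, and the 3 genotypes overlapped one another. In the compound mutants Hoxb9 was 7.37 to 7.90 in Pax1-/-Pax9-/- and 6.37 to 6.69 in Pax1-/-Pax9+/- replicates, with no overlap and no call between them. Against EGFP(-) cells the log2 fold change was -2.67 (SE 0.35, adjusted p = 1.69e-05) in Pax1-/-, -3.20 (SE 0.35, adjusted p = 1.81e-06) in Pax1+/- and -2.76 (SE 0.35, adjusted p = 1.15e-05) in WT cells. Within the chips that held both fractions the difference for WT cells was -2.93 on chip 3, -3.71 on chip 4 and -2.05 on chip 5.

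Hoxb6 and Hoxb7, neighbours in the cluster that are active in thoracic segments, were lower as well. Hoxb6 measured 6.62, 6.20, 6.20, 5.99 and 6.33 in Pax1-/- replicates, 6.16, 6.04, 6.42, 5.77 and 6.13 in Pax1+/- replicates and 6.10, 6.49, 6.52, 6.29 and 5.90 in WT replicates, against 7.44, 7.99 and 8.97 in EGFP(-) replicates. This gave log2 fold changes against EGFP(-) cells of -1.87 (SE 0.25, adjusted p = 2.47e-05) in Pax1-/-, -2.03 (SE 0.25, adjusted p = 8.36e-06) in Pax1+/- and -1.87 (SE 0.25, adjusted p = 2.26e-05) in WT cells. No EGFP(+) replicate reached the lowest EGFP(-) replicate. Hoxb7 measured 8.17, 7.94, 7.79, 8.24 and 8.16 in Pax1-/- replicates, 6.81, 7.77, 7.33, 7.51 and 7.95 in Pax1+/- replicates and 8.44, 6.86, 6.93, 7.66 and 8.03 in WT replicates, against 8.95, 8.89 and 10.14 in EGFP(-) replicates. Here too the fractions did not overlap, and EGFP(-) replicate B3 was the highest. Its log2 fold changes against the EGFP(-) replicates were -1.26 (SE 0.35, adjusted p = 0.0133) in Pax1-/-, -1.85 (SE 0.35, adjusted p = 0.000591) in Pax1+/- and -1.74 (SE 0.35, adjusted p = 0.00111) in WT cells. Hoxb7 had 2 kept probes, which gave -1.10 and -1.42 in Pax1-/-, -1.49 and -2.21 in Pax1+/- and -1.55 and -1.93 in WT cells, each past the threshold.

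Toward the 3′ end of the cluster the differences were smaller. Hoxb5, which acts in the lower neck and shoulder region, measured 8.99, 8.88, 8.66, 8.37 and 8.71 in Pax1-/- replicates, 8.59, 8.73, 9.36, 8.77 and 9.05 in Pax1+/- replicates and 9.04, 8.40, 7.82, 8.77 and 8.78 in WT replicates, against 9.41, 9.33 and 10.50 in EGFP(-) replicates. Hoxb5 in Pax1+/- replicate B3 lay just above the lowest EGFP(-) value, and in the other genotypes it lay below all EGFP(-) values. Set against EGFP(-) cells, Hoxb5 changed by a log2 value of -1.03 (SE 0.28, adjusted p = 0.0124) in Pax1-/-, -0.85 (SE 0.28, adjusted p = 0.0344) in Pax1+/- and -1.19 (SE 0.28, adjusted p = 0.00436) in WT cells. In Pax1+/- cells Hoxb5 lost its call without Pax1+/- replicate B1, B2 or B4 or EGFP(-) replicate B3. Hoxb2, which patterns the hindbrain segment that gives rise to the facial nerve, had log2 fold changes of -0.93 in Pax1-/-, -1.32 in Pax1+/- and -1.14 in WT cells (adjusted p = 0.037, 0.00364 and 0.0111). Hoxb4, which acts on cervical vertebrae and in blood stem cells, was called only in Pax1-/- cells at -0.99 (SE 0.29, adjusted p = 0.0214), with -0.77 (SE 0.29, adjusted p = 0.0662) in Pax1+/- and -0.34 (SE 0.29, adjusted p = 0.481) in WT cells. Between Pax1-/- and WT cells themselves Hoxb4 differed by -0.65 (SE 0.23, adjusted p = 0.324) and was not called.

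Hoxb3 was not called, and its 4 kept probes disagreed. One probe had log2 fold changes against EGFP(-) cells of -1.44 in Pax1-/-, -1.40 in Pax1+/- and -0.75 in WT cells (adjusted p over all kept probes = 0.00203, 0.00229 and 0.0978). The other 3 Hoxb3 probes lay between -0.155 and 0.253 in the same comparisons. Where in the gene each probe lies was not known here.

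**Figure D2:**
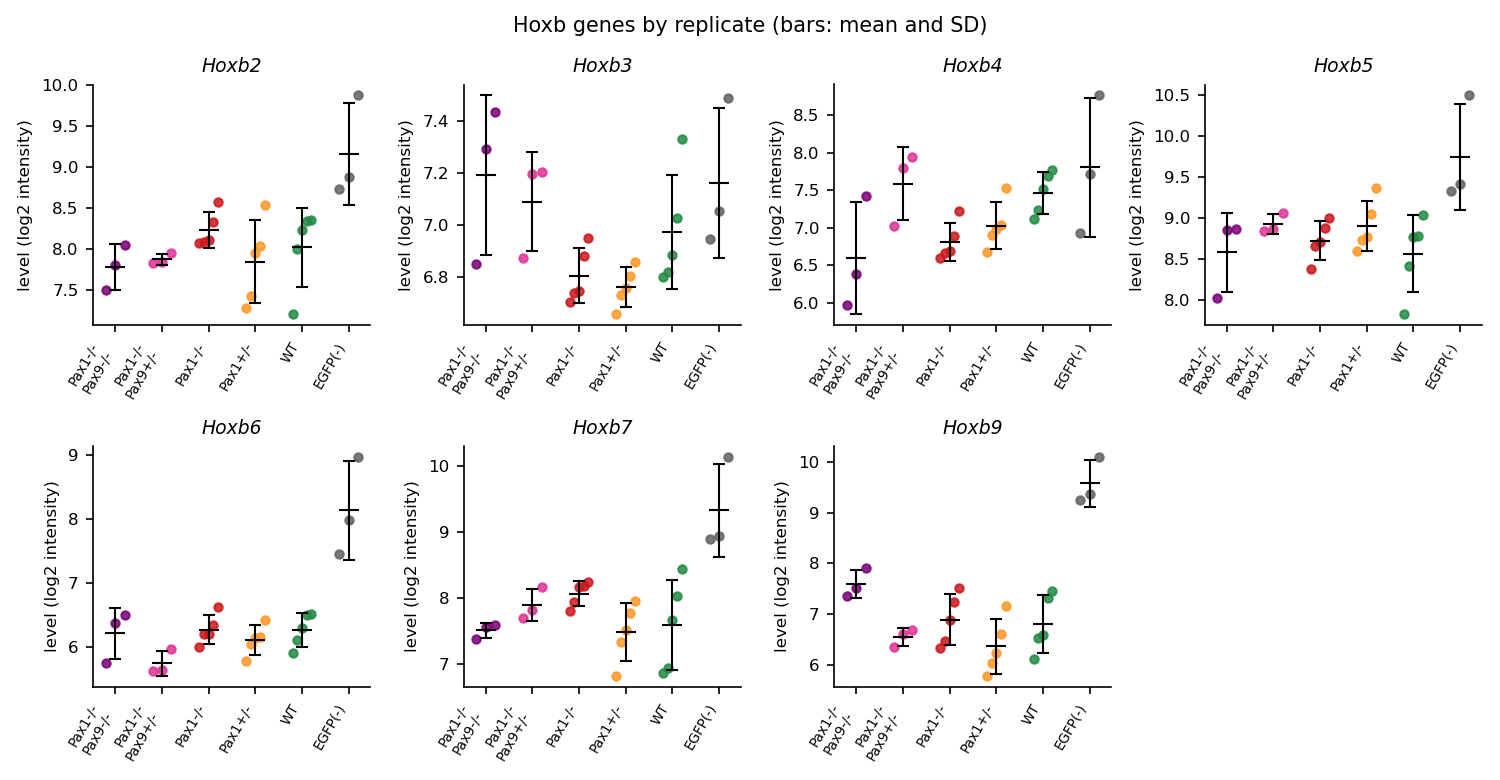
Levels (log2 intensity) of the 7 tested Hoxb genes in every replicate, with 1 panel for each gene; points are replicates and bars the group mean with its SD. The 3 EGFP(-) points stand above nearly all EGFP(+) points for Hoxb2, Hoxb5, Hoxb6, Hoxb7 and Hoxb9, with the widest gap for Hoxb9.

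Over the cluster the median log2 fold change of the 7 Hoxb genes against EGFP(-) cells was -1.03 in Pax1-/-, -1.32 in Pax1+/- and -1.19 in WT cells, beside 0.06, 0.08 and 0.06 over all genes. All 7 lay below 0 in each of the 3 genotypes. The rank correlation of the fold change with the paralogue number was -0.93 in Pax1-/-, -0.75 in Pax1+/- and -0.86 in WT cells (Spearman, 7 genes that share their libraries), with the more negative values at the 5′ end. The negative sign was not particular to Hoxb: the same correlation was -0.40, -0.667 and -0.65 over 9 Hoxc genes and -0.115, -0.333 and -0.37 over 10 Hoxa genes. In the Hoxd cluster the same correlation was 0.64, 0.74 and 0.62 over 8 genes, with the more negative values among the low numbers. Over all 34 genes it was -0.0023 in WT cells. On each chip that held both fractions the Hoxb median was below 0: -1.02, -1.98 and -0.77 on chips 3, 4 and 5 for Pax1-/- cells, -1.56, -2.19 and -0.75 for Pax1+/- cells, and -1.28, -1.67 and -0.39 for WT cells. The EGFP(-) replicates were not alike. Replicate B3, on chip 4, had the highest level of all 7 Hoxb genes and the lowest level of Pax1. Without it 5 Hox genes were called in Pax1-/- cells and 7 in Pax1+/- cells, and in Pax1-/- cells Hoxb2, Hoxb4, Hoxb5, Hoxb7 and Hoxd3 lost their call, while Hoxb6 and Hoxb9 were still called. In Pax1+/- cells Hoxb5, Hoxc6, Hoxc9, Hoxd4 and Hoxd8 lost theirs, and in WT cells, with 8 Hox genes called, Hoxb2, Hoxc6 and Hoxd3 did. Hoxb2 also lost its call in Pax1-/- cells without any 1 of Pax1-/- replicates B2 to B5.

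**Figure D3:**
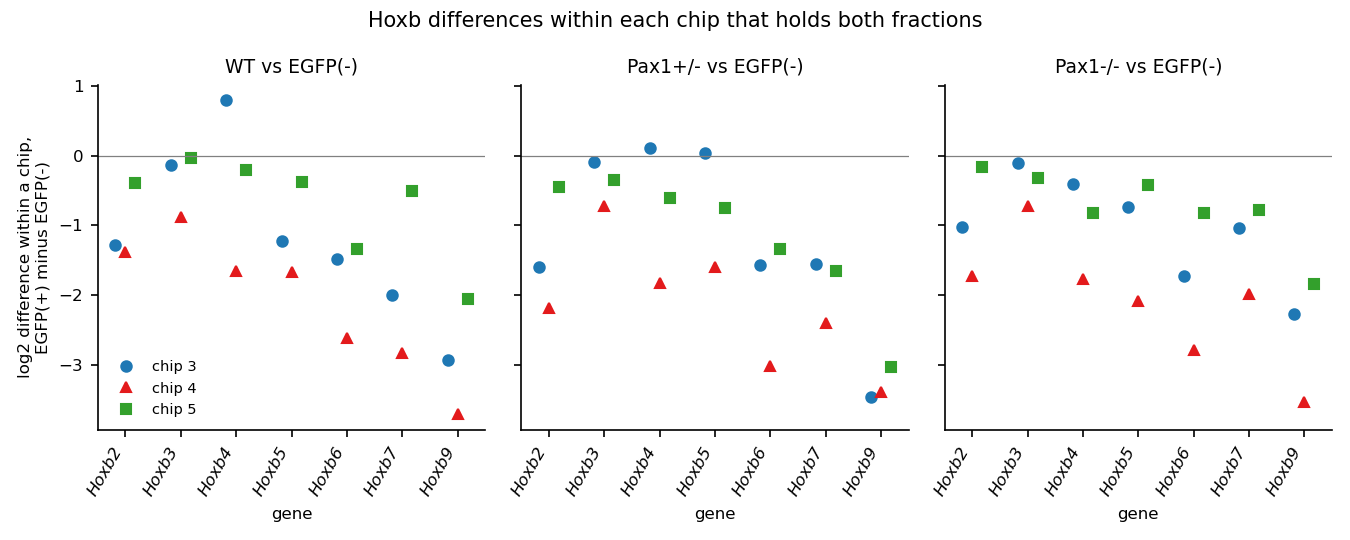
Difference in level (log2) between EGFP(+) and EGFP(-) arrays of the same chip for the 7 tested Hoxb genes, with 1 panel for each genotype and 1 colour for each of chips 3, 4 and 5. Nearly all points lie below 0, those of chip 4 lowest apart from Hoxb9 in Pax1+/- cells, and Hoxb9 has the largest difference of the 7 genes on each chip in each genotype.

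Genes of other cell types stood higher in the same EGFP(-) replicates. The mean level of a list of 10 neuronal genes was 6.04 to 6.46 in Pax1-/-, 5.47 to 6.11 in Pax1+/- and 5.76 to 6.55 in WT cells, against 7.67 to 7.80 in EGFP(-) cells, and 8 of the 10 were called lower in WT cells. The mean of 5 neural progenitor genes was 5.21 to 6.12 in WT and 7.09 to 7.30 in EGFP(-) cells (3 of 5 called lower), and the mean of 3 erythroid genes was 5.01 to 6.97 and 9.86 to 10.13 (3 of 3). All 5 macrophage and granulocyte genes, all 5 endothelial genes and all 4 skeletal muscle genes tested were called lower in WT cells too, as were 3 of 5 nephric genes, while Osr1 of that list was higher. Of 8 sclerotome genes 7 were called higher in WT cells, with a mean level of 8.55 to 8.85 against 6.25 to 7.04 in EGFP(-) cells. Pax1 is on this list and enters its mean, and the cells were sorted by EGFP driven by Pax1, so its difference was set by the sort. Of 3 limb bud genes tested 0 were called by limma in that comparison. The part of these cell types in the Hox differences was not tested. In RNA of sorted cells in bulk, fewer cells of a type and less RNA per cell cannot be told apart.

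Hoxa4 and Hoxc5 were the Hox genes called higher in EGFP(+) cells. Hoxa4, which acts on cervical vertebrae, measured 7.34, 7.07, 7.02, 6.63 and 7.20 in Pax1-/- replicates, 7.24, 6.90, 7.17, 7.18 and 7.33 in Pax1+/- replicates and 6.87, 6.80, 6.98, 6.86 and 7.24 in WT replicates, against 6.18, 4.75 and 6.62 in EGFP(-) replicates. All EGFP(+) replicates of the 3 genotypes lay above all EGFP(-) replicates, though by little in Pax1-/- replicate B4, and EGFP(-) replicate B2 stood far below the other two. As log2 fold changes these differences were 1.20 (SE 0.28, adjusted p = 0.00447) in Pax1-/-, 1.31 (SE 0.28, adjusted p = 0.00193) in Pax1+/- and 1.10 (SE 0.28, adjusted p = 0.0083) in WT cells. Without EGFP(-) replicate B2 Hoxa4 was no longer called in WT cells. Hoxc5, a lower cervical and thoracic gene, measured 5.60, 5.71, 5.94, 5.94 and 6.01 in Pax1-/- replicates, 6.19, 5.53, 6.41, 6.20 and 5.86 in Pax1+/- replicates and 6.44, 5.58, 4.95, 5.44 and 5.80 in WT replicates, against 4.77, 4.68 and 5.12 in EGFP(-) replicates. Its values lay near the lower end of the scale, and WT replicate B4 lay within the EGFP(-) range. Hoxc5 differed from EGFP(-) cells by log2 fold changes of 0.98 (SE 0.25, adjusted p = 0.00849) in Pax1-/-, 1.18 (SE 0.25, adjusted p = 0.0019) in Pax1+/- and 0.78 (SE 0.25, adjusted p = 0.0327) in WT cells. In WT cells Hoxc5 lost its call without any 1 of WT replicates B2 or B7 or of EGFP(-) replicates B1 or B2. With each array centred on its median instead of quantile normalized, neither gene was called in WT cells (0 Hox genes higher, 8 lower).

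Among Hoxd and the rest of Hoxc, the calls were lower in EGFP(+) cells. Hoxd4, a cervical gene like Hoxa4, measured 10.55, 9.96, 9.85, 10.15 and 10.39 in Pax1-/- replicates, 10.13, 10.25, 10.71, 10.39 and 10.99 in Pax1+/- replicates and 10.01, 10.14, 10.19, 9.58 and 9.71 in WT replicates, against 11.23, 10.73 and 11.50 in EGFP(-) replicates. All Pax1-/- and WT replicates of Hoxd4 lay below the EGFP(-) replicates, while Pax1+/- replicate B5 lay above the lowest of them. Log2 fold changes of Hoxd4 against EGFP(-) cells were -0.97 (SE 0.22, adjusted p = 0.00382) in Pax1-/-, -0.66 (SE 0.22, adjusted p = 0.0396) in Pax1+/- and -1.23 (SE 0.22, adjusted p = 0.000484) in WT cells. In Pax1+/- cells the call of Hoxd4 was lost without Pax1+/- replicate B1, B2 or B4 or EGFP(-) replicate B1 or B3. Thus 2 genes of paralogue group 4 were called in opposite directions, Hoxa4 higher and Hoxd4 lower. Hoxc6, a thoracic gene that is also active in the forelimb, measured 11.07, 11.04, 11.01, 11.11 and 11.20 in Pax1-/- replicates, 10.82, 10.81, 11.03, 10.87 and 10.86 in Pax1+/- replicates and 11.04, 10.57, 10.96, 10.91 and 10.73 in WT replicates, against 11.30, 11.52 and 11.69 in EGFP(-) replicates. All EGFP(+) replicates lay below the EGFP(-) replicates by a small margin. The log2 fold changes were -0.63 (SE 0.12, adjusted p = 0.000882) in Pax1+/- and -0.66 (SE 0.12, adjusted p = 0.00059) in WT cells, and without EGFP(-) replicate B3 Hoxc6 was called in neither.

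Hoxd3, which acts on the atlas, was called in Pax1-/- cells at -0.72 (SE 0.20, adjusted p = 0.0149) and in WT cells at -0.65 (SE 0.20, adjusted p = 0.0273), and its replicates overlapped between the fractions in WT. Calls in Pax1+/- cells alone were Hoxc9 at -1.74 (SE 0.60, adjusted p = 0.0439), Hoxc13 at -2.03 (SE 0.48, adjusted p = 0.00464) and Hoxd8 at -1.36 (SE 0.40, adjusted p = 0.0179). Hoxc9 is a thoracic gene, Hoxc13 is active in the tail and later in hair follicles, and Hoxd8 is active in the trunk. In WT cells these genes had log2 fold changes of -0.81, -0.94 and -0.83. The direct comparison of Pax1+/- with WT cells called none of them. Leaving out single Pax1+/- replicates removed the call of Hoxc9 in every case, as did leaving out EGFP(-) replicate B2 or B3. The genes of groups 10 and 11, which act on lumbar and sacral vertebrae, were not called in any of the 3 genotypes and lay between -0.16 and 0.87.

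By paralogue group, the members of 1 group often differed between clusters. In group 9 the log2 fold change of WT against EGFP(-) cells was -2.76 for Hoxb9, -0.49 for Hoxa9, -0.81 for Hoxc9 and 0.23 for Hoxd9, of which Hoxb9 was called. In group 5 it was -1.19 for Hoxb5, 0.33 for Hoxa5 and 0.78 for Hoxc5. Groups 6 and 7 had all their tested members below 0: -0.47 for Hoxa6, -1.87 for Hoxb6 and -0.66 for Hoxc6, and -0.23 for Hoxa7 and -1.74 for Hoxb7. Of the 3 kept probes of Hoxa9, another gene of the thoracic group, 1 was called at -1.15 in Pax1-/- and -1.04 in WT cells (adjusted p over all kept probes = 0.018 and 0.0323), while the other 2 lay between -0.34 and -0.15 there. Within the Hoxa cluster Hoxa4 was the sole call in each genotype, and the other 9 tested Hoxa genes lay between -0.71 and 0.87.

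The next question was whether loss of Pax1 changed the Hox genes of EGFP(+) cells. No Hox gene was called by limma in Pax1-/- against WT cells (0 of 34), where 0.135% of all genes were called higher and 0.0897% lower, and none in Pax1+/- against WT cells (0 of 34), where 0.194% were called higher and 0.224% lower. At an unadjusted p under 0.05 there were 4 Hox genes in Pax1-/- cells (Hoxa2, Hoxb4, Hoxc6 and Hoxd10) and 3 in Pax1+/- cells (Hoxc13, Hoxd4 and Hoxd9). These counts have no share of all genes beside them and are not read as a result about Hox genes. The methods' tests gave 1 Hox gene in Pax1-/- cells at an unadjusted p under 0.05 and the same fold limit. The median log2 fold change of the 34 genes was 0.10 in Pax1-/- and -0.12 in Pax1+/- cells, beside 0.0066 and 0.0073 over all genes. In Pax1-/- cells all 10 central genes lay above 0 (median 0.18), 11 of 14 posterior genes did so (median 0.10), and 7 of 10 anterior genes lay below 0 (median -0.12).

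The Hox genes with the smallest p in the single mutants did not pass the adjusted threshold. In Pax1-/- against WT cells, Hoxb4 had a log2 fold change of -0.65 (SE 0.23, adjusted p = 0.324), Hoxc6 of 0.24 (SE 0.09, adjusted p = 0.374), Hoxd10, which acts on lumbar vertebrae and hindlimb motor neurons, of 0.28 (SE 0.09, adjusted p = 0.281) and Hoxa2, which patterns the second branchial arch, of -0.29 (SE 0.14, adjusted p = 0.503). In Pax1+/- against WT cells, Hoxd4 had 0.57 (SE 0.18, adjusted p = 0.172), Hoxd9, a gene of the lower trunk, -0.26 (SE 0.09, adjusted p = 0.19) and Hoxc13 -1.09 (SE 0.38, adjusted p = 0.215).

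Several Hox genes varied between replicates of 1 genotype more than most genes. The median SD of the tested Hox genes within a group was 0.193 to 0.44, beside 0.17 to 0.265 over all genes. Hoxa6, a gene of the thoracic region, measured 7.22, 8.57, 7.01, 8.47 and 9.0 in Pax1-/- replicates and 8.86, 7.76, 8.45, 7.33 and 4.77 in WT replicates, of which WT B7 was far below the rest. Arrays of the same replicate name differed on this gene too: Pax1-/- B3 had 5.76 on chip 2 and 8.27 on chip 3. Hoxc13 differed by 1.72 between the 2 arrays of Pax1-/- B2 and by 1.68 between those of WT B5. Hoxc9 measured 5.72, 8.18, 7.65, 6.89 and 7.83 in Pax1-/- and 5.42, 8.29, 6.77, 7.87 and 8.13 in WT replicates and had no order by genotype.

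The comparison of the compound mutants asked what followed when Pax9 was lost on top of Pax1. In Pax1-/-Pax9-/- cells 4 of 34 Hox genes were called against WT cells: Hoxd12 was higher, and Hoxa4, Hoxb4 and Hoxd4 were lower. All 3 lower genes belong to paralogue group 4, which acts on cervical vertebrae. Over all genes 3.38% were called higher and 3.62% lower, and in either direction 11.8% of the Hox genes and 7.0% of all genes were called. In Pax1-/-Pax9+/- cells 0 Hox genes were called by limma against WT cells (all genes: 2.48% higher, 2.28% lower). At an unadjusted p under 0.05 there were 6, a limit for which no share of all genes is given. Without WT replicate B7, Hoxa6 and Hoxb6 were called there, and without WT B2, Hoxc5. Against Pax1-/- cells, Hoxa4 and Hoxd4 were lower in Pax1-/-Pax9-/- cells (all genes: 4.52% higher, 5.16% lower) and Hoxd4 was lower in Pax1-/-Pax9+/- cells (all genes: 3.9% higher, 4.22% lower). Within chip 1, Pax1-/-Pax9-/- against Pax1-/-Pax9+/- cells gave Hoxc10 higher and Hoxa4 lower (all genes: 0.127% higher, 0.187% lower).

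Markers of the sorted tissue and of other cell types moved in the same comparisons. The mean level of the 8 sclerotome genes was 8.08 to 8.34 in Pax1-/-Pax9-/- cells and 8.64 to 8.78 in Pax1-/-Pax9+/- cells, against 8.55 to 8.85 in WT cells. Of that list Col2a1, Sox5, Pax1 and Pax9 were called lower and Meox1 higher in Pax1-/-Pax9-/- against WT cells (median -0.52), 2 of the lower genes being those the alleles disrupt. The mean level of 5 endothelial genes was 5.57 to 6.10 in Pax1-/-Pax9-/- and 4.93 to 5.58 in Pax1-/-Pax9+/- cells, against 4.75 to 5.27 in WT cells, and of these Tek, an endothelial receptor, was called higher in Pax1-/-Pax9-/- cells at 2.77 (SE 0.34, adjusted p = 5.36e-05). Tek lay far above the median log2 fold change of the 5 endothelial genes, which was 0.482 against WT and 0.0908 against Pax1-/-Pax9+/- cells. No gene of the other marker lists was called by limma in Pax1-/-Pax9-/- against WT cells. The mean level of 4 skeletal muscle genes was 7.029 to 7.264 in Pax1-/-Pax9-/- cells, within the WT range of 6.215 to 7.468. It lay above all Pax1-/-Pax9+/- replicates, with a median log2 fold change of 0.601 and 0 genes called. Within chip 1, Col2a1 (-1.23) and Sox5 (-0.92) were called lower and Tek (2.20) higher in Pax1-/-Pax9-/- against Pax1-/-Pax9+/- cells. The part of these genes' cells in the Hox differences was not tested.

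The sequences around the start sites of Hoxb4, Hoxd4 and Hoxd12 are shown because these genes were called in the compound mutants, and that of Hoxc4 is shown as the paralogue of group 4 that was not called. Hoxa4 and Hoxc10, which were called too, are named only. They are from RefSeq (build GRCm38.p6), which gave 24 such windows for 22 of the 38 Hox genes, and each runs from 250 bases before the start site to 50 bases after it on the + strand. Hoxb4 lies at chr11:96318017-96318316, Hoxc4 at chr15:103034145-103034444, Hoxd4 at chr2:74721728-74722027 and Hoxd12 at chr2:74674763-74675062. Capitals mark matches to TATAAA or CCAAT on either strand.
Hoxb4: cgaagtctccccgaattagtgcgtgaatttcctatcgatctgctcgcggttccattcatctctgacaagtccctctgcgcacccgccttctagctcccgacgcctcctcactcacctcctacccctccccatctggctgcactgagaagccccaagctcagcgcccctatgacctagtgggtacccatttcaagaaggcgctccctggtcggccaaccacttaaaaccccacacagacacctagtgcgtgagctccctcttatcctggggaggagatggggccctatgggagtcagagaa
Hoxc4: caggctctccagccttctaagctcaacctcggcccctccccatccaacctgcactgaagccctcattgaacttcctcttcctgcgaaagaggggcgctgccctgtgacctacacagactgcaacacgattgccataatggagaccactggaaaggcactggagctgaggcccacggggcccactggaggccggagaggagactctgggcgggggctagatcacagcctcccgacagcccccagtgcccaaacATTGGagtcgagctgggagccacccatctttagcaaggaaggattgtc
Hoxd4: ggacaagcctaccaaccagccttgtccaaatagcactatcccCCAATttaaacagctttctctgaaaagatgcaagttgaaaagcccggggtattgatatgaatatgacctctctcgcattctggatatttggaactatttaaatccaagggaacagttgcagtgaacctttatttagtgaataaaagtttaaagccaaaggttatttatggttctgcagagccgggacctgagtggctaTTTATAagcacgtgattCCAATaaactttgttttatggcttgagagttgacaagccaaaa
Hoxd12: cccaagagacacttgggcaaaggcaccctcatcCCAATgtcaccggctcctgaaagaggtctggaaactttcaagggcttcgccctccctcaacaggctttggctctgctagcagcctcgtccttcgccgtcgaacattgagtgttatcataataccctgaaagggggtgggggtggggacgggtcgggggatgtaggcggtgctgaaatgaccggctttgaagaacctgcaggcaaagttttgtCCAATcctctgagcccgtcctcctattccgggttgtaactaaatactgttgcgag

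The windows differ in composition, with a GC content of 58% in Hoxb4, 60.3% in Hoxc4, 39.7% in Hoxd4 and 55% in Hoxd12. The Hoxd4 window holds TATAAA on the opposite strand, printed as TTTATA, at positions -10 to -5 from the start site. It holds CCAAT at -208 to -204 and 8 to 12. The Hoxd12 window holds CCAAT at -217 to -213 and -5 to -1. The Hoxc4 window holds it at 3 to 7 on the opposite strand, printed as ATTGG, and the Hoxb4 window holds neither motif. TATAAA was found in 13.6% and CCAAT in 37.4% of the 32851 windows of the same length in the mouse table, and in 4 and 15 of the 24 Hox windows. Motifs of factors that act with or on Hox genes were searched on both strands as well. The core GCGTGAC of the Pax paired domain was in 0 of the 24 Hox windows and in 2.09% of all windows, the Meis motif TGACAG in 2 (Hoxa2 and Hoxa3) and 19.2%, and the Hox and Pbx motif TGATTNAT in 2 (Hoxa2 and Hoxd11) and 3.22%. A match is a run of letters and not a measured binding site.

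Hoxa4 measured 6.04, 6.00 and 6.30 in Pax1-/-Pax9-/- replicates, against 7.22, 6.91 and 7.26 in Pax1-/-Pax9+/-, 7.34, 7.07, 7.02, 6.63 and 7.20 in Pax1-/- and 6.87, 6.80, 6.98, 6.86 and 7.24 in WT replicates. The 3 Pax1-/-Pax9-/- replicates lay below all replicates of the other EGFP(+) genotypes. The log2 fold change was -0.83 (SE 0.15, adjusted p = 0.0023) against WT, -0.94 (SE 0.15, adjusted p = 0.000753) against Pax1-/- and -1.02 (SE 0.17, adjusted p = 0.0052) against Pax1-/-Pax9+/- cells, the last of them from arrays of 1 chip. With a term for the chip series, Hoxa4 differed from WT by -0.70 (adjusted p = 0.0335), and among arrays of series B alone by -0.88 (adjusted p = 0.128). From Pax1-/- cells it differed by -0.77 (adjusted p = 0.0135) and -0.65 (adjusted p = 0.138) in the same fits. With the spread estimated from series B alone, the adjusted p against Pax1-/-Pax9+/- cells was 0.0998. Without the library labelled Pax1-/-Pax9-/- B1 the fold changes were -0.80 against WT (adjusted p = 0.0119), -0.90 against Pax1-/- (0.00486) and -0.98 against Pax1-/-Pax9+/- cells (0.0299). Against Pax1-/-Pax9+/- cells the call was lost without Pax1-/-Pax9+/- replicate B3, when 0 Hox genes were called.

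Hoxd4 measured 8.62, 8.43 and 9.11 in Pax1-/-Pax9-/- and 9.22, 9.40 and 9.51 in Pax1-/-Pax9+/- replicates, against 10.55, 9.96, 9.85, 10.15 and 10.39 in Pax1-/- and 10.01, 10.14, 10.19, 9.58 and 9.71 in WT replicates. All Pax1-/-Pax9-/- values lay below all Pax1-/- and WT values. The log2 fold change was -1.21 (SE 0.21, adjusted p = 0.00164) for Pax1-/-Pax9-/- against WT, -1.46 (SE 0.21, adjusted p = 0.00038) for Pax1-/-Pax9-/- against Pax1-/- and -0.80 (SE 0.21, adjusted p = 0.0182) for Pax1-/-Pax9+/- against Pax1-/- cells. The level of Hoxd4 also moved with the chip series: the arrays of series B averaged 9.77 in Pax1-/- and 9.43 in WT cells, those of series A 10.31 in Pax1-/- and 10.09 in WT cells. With a term for the chip series the difference of Pax1-/-Pax9-/- from WT was -0.76 (adjusted p = 0.15), and that from Pax1-/- was -1.02 (adjusted p = 0.0227). For Pax1-/-Pax9+/- against Pax1-/- cells it was -0.36 (adjusted p = 0.576), or -0.39 (adjusted p = 0.572) in series B alone, and that call was also lost without Pax1-/-Pax9+/- replicate B1 or B2. Among arrays of series B alone the 2 differences of Pax1-/-Pax9-/- were -0.71 (adjusted p = 0.429) from WT and -1.05 (adjusted p = 0.11) from Pax1-/- cells. Without the library labelled Pax1-/-Pax9-/- B1 they were -1.16 from WT (adjusted p = 0.00995) and -1.41 from Pax1-/- cells (0.00238).

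Hoxb4 measured 5.97, 7.42 and 6.39 in Pax1-/-Pax9-/- replicates, against 7.79, 7.03 and 7.94 in Pax1-/-Pax9+/-, 6.89, 6.59, 6.69, 6.66 and 7.22 in Pax1-/- and 7.51, 7.69, 7.77, 7.12 and 7.24 in WT replicates. Pax1-/-Pax9-/- replicate B2 lay within the WT range. The Pax1-/-Pax9-/- and Pax1-/- values overlapped, with means of 6.59 and 6.81, and Hoxb4 was not called between these genotypes. The log2 fold change against WT was -0.87 (SE 0.27, adjusted p = 0.0488), with -0.68 (adjusted p = 0.31) in the fit with a term for the chip series and -0.59 (adjusted p = 0.617) in series B alone. Without the library labelled Pax1-/-Pax9-/- B1, which had the lowest level, it was -0.56 (adjusted p = 0.239). Hoxb4 was called under 5 of 21 alternative settings. Hoxc4, the remaining paralogue, measured 5.07, 4.82 and 5.54 in Pax1-/-Pax9-/- and 5.70, 4.74, 4.51, 4.97 and 6.09 in WT replicates, which overlapped, with a log2 fold change of -0.06 (SE 0.27, adjusted p = 0.912), or -0.025 (adjusted p = 0.972) without that library.

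**Figure D4:**
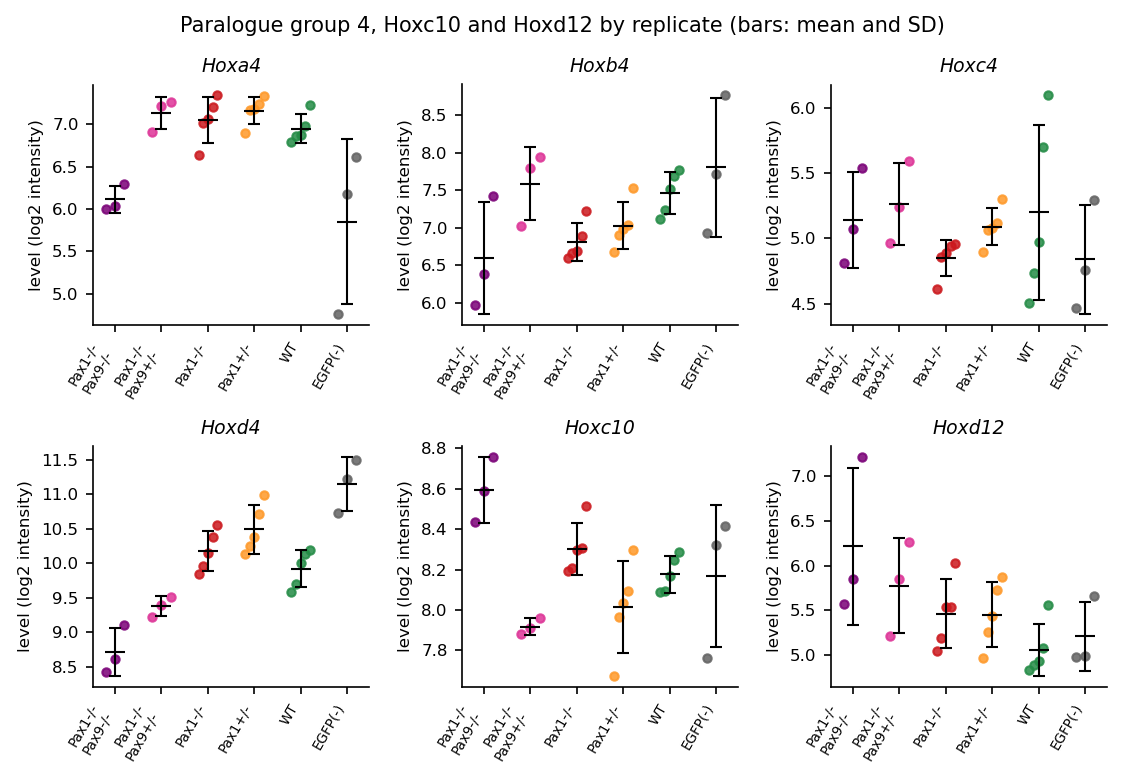
Levels (log2 intensity) of Hoxa4, Hoxb4, Hoxc4, Hoxd4, Hoxc10 and Hoxd12 in every replicate of the 6 groups, with 1 panel for each gene; points are replicates and bars the group mean with its SD. The Pax1-/-Pax9-/- points are the lowest EGFP(+) points for Hoxa4 and Hoxd4, while for Hoxb4 and Hoxc4 they overlap the WT points.

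Hoxd12, which acts in the developing hand and foot, measured 7.21, 5.85 and 5.57 in Pax1-/-Pax9-/- replicates, against 6.26, 5.21 and 5.85 in Pax1-/-Pax9+/-, 5.53, 5.18, 5.53, 6.03 and 5.04 in Pax1-/- and 4.83, 4.89, 5.56, 5.08 and 4.94 in WT replicates. The highest value belonged to the library labelled Pax1-/-Pax9-/- B1. All 3 lay above the WT values, though B3 by little (5.574, against 5.558 in WT B4). Hoxd12 was detected on 2 of 6 WT arrays, so its WT level lies near background. The log2 fold change against WT was 1.16 (SE 0.32, adjusted p = 0.0278), and without that library it was 0.66 (adjusted p = 0.173). The call was also lost without WT replicate B2 or B3, and with a chip series term the difference was 1.18 (adjusted p = 0.115), and in series B alone 1.25 (adjusted p = 0.382). Hoxc10, which acts on lumbar vertebrae, measured 8.76, 8.59 and 8.43 in Pax1-/-Pax9-/- replicates, against 7.96, 7.88 and 7.91 in Pax1-/-Pax9+/-, 8.52, 8.31, 8.21, 8.19 and 8.29 in Pax1-/- and 8.17, 8.29, 8.25, 8.09 and 8.09 in WT replicates. The 3 Pax1-/-Pax9-/- values lay above the Pax1-/-Pax9+/- and WT values. The log2 fold change was 0.68 (SE 0.14, adjusted p = 0.0351) against Pax1-/-Pax9+/- and 0.42 (SE 0.12, adjusted p = 0.0377) against WT cells, a difference from WT that is below the fold limit. Without the library labelled Pax1-/-Pax9-/- B1 the difference from WT was 0.335 (adjusted p = 0.147) and that from Pax1-/-Pax9+/- was 0.59 (adjusted p = 0.113). The call against Pax1-/-Pax9+/- cells was also lost in series B alone (adjusted p = 0.0849) and without Pax1-/-Pax9-/- replicate B2 or any 1 of the Pax1-/-Pax9+/- replicates. Neither kept Hoxc10 probe was called on its own in that comparison.

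The 34 genes were also set in order of their paralogue number. In Pax1-/-Pax9-/- against WT cells 11 of 14 posterior genes lay above 0 (median 0.43), the central genes had a median of -0.07, and 7 of 10 anterior genes lay below 0 (median -0.26), beside a median of 0.00044 over all genes. Some of these posterior genes lay near background. Each kept Hoxa13 probe was detected on 0 or 1 array in either group. Each kept probe was detected on 3 of 6 WT arrays for Hoxc11, on 4 for Hoxd11 and on 2 for Hoxd12. Of the posterior genes, Hoxc9 (1.49), Hoxd12 (1.16) and Hoxc13 (1.04) had the largest fold changes, and Hoxd12 was called. For Hoxc9 and Hoxc13 the differences were 0.92 and 0.76 with a chip series term, 0.70 and 0.62 in series B alone, and 1.78 and 1.01 without the library labelled Pax1-/-Pax9-/- B1. The rank correlation of fold change and paralogue number was 0.538 over the 34 genes (Spearman), which share their libraries, and it was 0.564 in Hoxa, 0.429 in Hoxb, 0.617 in Hoxc and 0.405 in Hoxd. The correlation was 0.555 with a term for the chip series and 0.53 among arrays of series B alone, where the medians were 0.42, 0.18 and -0.37 for posterior, central and anterior genes. Against Pax1-/-Pax9+/- cells on the same chip it was 0.435, with 11 of 14 posterior genes above 0 (median 0.37). Against Pax1-/- cells it was 0.342, with 9 of 14 posterior genes above 0 (median 0.305) and the anterior genes split 5 above and 5 below 0. That value was 0.291 with a chip series term and 0.272 in series B alone, it was 0.0545 within Hoxa, and with median centring 7 of 14 posterior genes lay above 0. Without the library labelled Pax1-/-Pax9-/- B1 the correlation was 0.42 against WT, 0.231 against Pax1-/-Pax9+/- and 0.155 against Pax1-/- cells, and the posterior medians were 0.345, 0.192 and 0.229. In Pax1-/- against WT cells the correlation was 0.327, or 0.485 with the chip as a block. With each array centred on its median the posterior genes of Pax1-/-Pax9-/- against WT cells had a median of 0.24 and the anterior genes -0.48, beside -0.11 over all genes. At an unadjusted p under 0.05 there were 12 Hox genes in that comparison, 9 higher and 3 lower. The share of all genes under that limit is not given here, so the count is not read as a result about Hox genes. Without WT replicate B7, in which Hoxa6 was low, 7 Hox genes were called, with Hoxa6, Hoxb9 and Hoxc9 added.

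**Figure D5:**
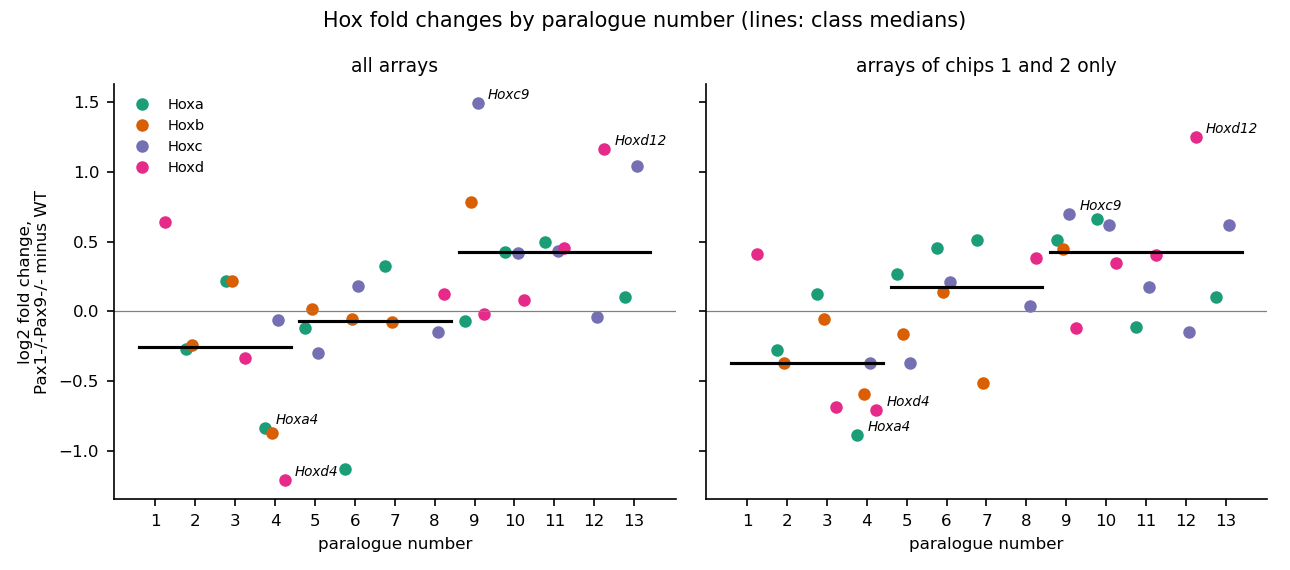
Log2 fold change of Pax1-/-Pax9-/- against WT cells for each of the 34 tested Hox genes by paralogue number, for all arrays (left) and for arrays of chips 1 and 2, the chips of series B, alone (right); colours are clusters and lines the medians of the anterior, central and posterior genes. In both panels the posterior median lies above 0 and the anterior median below it. The right panel still compares chip 1 with chip 2.

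Other genes with more than 1 kept probe disagreed in the compound mutants. In Pax1-/-Pax9+/- against WT cells the 2 Hoxd11 probes gave 0.90 and -0.16, the 2 Hoxc10 probes 0.11 and -0.63 and the 2 Hoxa3 probes 0.55 and -0.20. The second Hoxc10 probe was called there (adjusted p = 0.0236 over all kept probes). In Pax1-/-Pax9-/- against WT cells 1 Hoxa2 probe was called at -0.75 (adjusted p = 0.0139) while the other gave 0.20, and 1 Hoxc10 probe was called at 0.69. Both called probes were still called without the library labelled Pax1-/-Pax9-/- B1, at -0.87 and 0.64 (adjusted p = 0.0163 and 0.0208). In that limma fit the other Hoxa2 probe gave 0.465 (adjusted p = 0.395) and the other Hoxc10 probe 0.028 (adjusted p = 0.942).

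Hox proteins bind DNA together with cofactors of the TALE homeodomain class, Pbx, Meis and Prep. Of 9 listed cofactors 8 were tested, and 0 were called by limma in any of the 10 comparisons, with medians of -0.08 to 0.17. Of 18 listed upstream regulators of Hox genes and axial extension 11 were tested. Wnt5a, a ligand needed for axis elongation, and Rarg, a retinoic acid receptor, were higher in WT than in EGFP(-) cells at 1.16 (SE 0.17, adjusted p = 5.39e-05) and 1.01 (SE 0.20, adjusted p = 0.000872). Nr6a1, an orphan receptor that sets the number of trunk vertebrae, was lower at -1.38 (SE 0.33, adjusted p = 0.00491), and Mllt3 was called lower too. Cyp26a1, the enzyme that clears retinoic acid in the tail bud, measured 6.04, 5.92 and 6.64 in Pax1-/-Pax9-/- and 6.08, 6.15 and 6.38 in Pax1-/-Pax9+/- replicates, against 5.15, 4.65, 5.16, 5.57 and 5.01 in WT replicates, with no overlap. Its log2 fold change was 1.09 (SE 0.20, adjusted p = 0.0024) in Pax1-/-Pax9-/- and 1.10 (SE 0.20, adjusted p = 0.00533) in Pax1-/-Pax9+/- against WT cells, groups that lay on different chips. With a chip series term neither was called, at 0.88 in both (adjusted p = 0.0803 and 0.186), nor in series B alone, at 0.64 in both (adjusted p = 0.487 and 0.687). Cyp26a1 in Pax1-/-Pax9-/- cells was at 1.17 (adjusted p = 0.00632) without the library labelled Pax1-/-Pax9-/- B1. Of 10 genes that border the clusters 9 were tested, and Evx1 and Skap2, which flank the Hoxa cluster, were lower in WT than in EGFP(-) cells.

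The genes without a kept probe and the genes near the detection limit bound what could be seen. Hoxb1 and Hoxb13 were detected on 0 arrays, Hoxb8 on 1 EGFP(-) array and Hoxd13 on 1 Pax1-/- and 1 WT array. Of the 57 Hox probes 29 were detected on all 28 arrays and 7 on none. Hoxa13 and Hoxc8 were not above background on any EGFP(-) array, Hoxc8 also on none of the Pax1+/- or compound mutant arrays, Hoxc12 on none of the WT or compound mutant arrays and Hoxd1 on no Pax1-/-Pax9+/- array. Hoxd12 was detected on 2 of 6 WT arrays and Hoxc13 on 2 of 5 Pax1+/- arrays, so their levels there lie near background. In groups where a gene was not above background its level is an upper limit. Hoxc12 was at least 1.13-fold lower in WT than in EGFP(-) cells on that basis (limma adjusted p = 0.0402, below the fold limit).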

How the data were processed

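The authors deposited a table of probe intensities, background-subtracted in BeadStudio and not normalized between arrays, with a detection p-value for each intensity that the authors' software set against negative control probes (936 per array). A second deposited table holds log2 values that the authors quantile normalized in GeneSpring GX, used as an alternative. Intensities were corrected by normexp (offset 16, background from the detection p-values), quantile normalized and put on the log2 scale in limma 3.58.1 (R 4.3.3). Probes detected on at least 3 arrays were kept, and the kept probes of a gene were averaged. Arrays with the same group and replicate name were averaged, which left 24 replicates of 28 arrays. Fits with a term for the chip series, with the chip as a block or with chips as random blocks kept each array as its own sample instead. Models were fitted over all genes with lmFit and eBayes, 1 for EGFP(-), WT, Pax1+/- and Pax1-/- cells and 1 for the 5 EGFP(+) genotypes. The scripts were tested on simulated data. Levels in every replicate are given for at most the 4 called Hox genes of smallest adjusted p in each direction of a comparison. Genes of other lists are named where called, at most 3 of a list. The sclerotome genes in the compound mutants and the upstream regulators in WT cells go past that limit. Hoxa6, Hoxc4, Hoxc9, Hoxc13 and Cyp26a1 were given more fully after their values were seen. The members, lists and rules were chosen with earlier results of these data known. The replicate names gave no pairing: same-named replicates of compared groups had correlations of their deviations from -0.183 to 0.144. The arrays that the study set aside as outliers were not known here, and all were used. The precision is limited by the number of arrays.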

Additional observations from a re-analysis of the deposited data

Results flagged for a closer look

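Of 33 combinations of a gene given in full and a group of 5 replicates, 1 held a value that stood apart by Dixon's criterion, which flags about 1 group in 20 by chance. Hoxc6 was 11.03 in Pax1+/- replicate B3, against 10.81 to 10.87 in the other replicates of that genotype. The gap to the nearest value was 0.711 of the range, just past the limit of 0.71.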

How the results depend on the processing

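The fold changes of the called Hox genes given in every replicate under the naming rule kept their direction under all settings that were run. Of all called Hox fold changes against EGFP(-) cells, 1 turned within a chip: Hoxb5 in Pax1+/- cells was 0.03 within chip 3. The counts of Hox genes called against EGFP(-) cells stayed within 1.5 times under every setting other than leaving out a replicate, which gave 8 to 10 in WT, 7 to 12 in Pax1+/- and 5 to 11 in Pax1-/- cells, the 7 and the 5 without EGFP(-) replicate B3. In Pax1-/- against WT cells 1 Hox gene was called by the methods' tests unadjusted. In Pax1-/-Pax9+/- against WT cells 1 was called with the kept probe of the highest mean, with each kept probe as its own feature, and with the replicate block, and leaving out a replicate gave 0 to 2, the 2 without WT B7. In Pax1-/-Pax9-/- against WT cells 4 were called, against 2 with the authors' log2 values, 2 with chips as random blocks, 1 with a chip series term, 0 with arrays of series B alone and 0 by the methods' tests adjusted. Leaving out a replicate gave 2 to 7 there, 2 without WT B2, WT B3 or the library labelled Pax1-/-Pax9-/- B1 and 7 without WT B7. In Pax1-/-Pax9-/- against Pax1-/-Pax9+/- cells 2 were called, against 1 with floored signals, the authors' values, the probe of highest mean or each probe alone, 0 with median centring, only the groups compared, series B alone or the methods' tests adjusted, and 6 by those tests unadjusted. Leaving out a replicate gave 0 to 2 there. In Pax1-/-Pax9+/- against Pax1-/- cells 1 was called, against 2 with median centring or the adjusted p alone, 3 with the probe of highest mean, each probe alone, the replicate block or only the groups compared, and 0 with a chip series term, with chips as random blocks or with series B alone, and 0 to 1 without single replicates. In Pax1-/-Pax9-/- against Pax1-/- cells 2 were called, against 5 with the replicate block, 4 with only the groups compared, 0 with series B alone and 2 to 3 without single replicates. The cause of these changes was not tested. The settings with series B alone also hold fewer arrays. The replicate names pair no samples by design, and the block changed no other count by more than 1.5 times. Median centring left 0 higher and 8 lower Hox calls in WT against EGFP(-) cells and 0 and 3 in Pax1-/-Pax9-/- against WT cells, and the authors' values left 1 and 1 in the second. Median centring moved the median of all genes by up to -0.135, in Pax1-/-Pax9-/- against Pax1-/- cells. Hoxb4 and Hoxd12 in Pax1-/-Pax9-/- against WT cells were called under 5 and 10 of 21 settings, Hoxc10 against Pax1-/-Pax9+/- cells under 7 of 21, and Hoxc5 in WT against EGFP(-) cells under 11 of 24.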
